A study of Mus musculus with 112 samples.

Results

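Newly made polyadenylated (polyA) RNA of the nucleoplasm was compared between mouse embryonic stem cells (ESCs) treated to deplete SNRNP70 and the same cells without that treatment. The libraries were taken by their labels, which name line, treatment and fraction, and came to 6 of the 112 samples of the series. The series asked how U1 snRNP acts on the chromatin retention of noncoding RNAs. It read long noncoding RNAs (lncRNAs) in whole cells and in chromatin, nucleoplasm and cytoplasm after depletion of SNRNP70 or block of small nuclear RNAs.

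All 6 libraries came from SNRNP70-AID mESCs, built from the 46C line (strain 129/Ola), in which SNRNP70 carries an auxin-inducible degron and is broken down when indole-3-acetic acid (IAA) is added. In the +IAA group (3 libraries) cells had 500 µM IAA for 2 h and then IAA with 4-thiouridine (4sU) for another 3 h. In the no-IAA group (3 libraries) cells had 4sU for 3 h alone. So both groups carry the degron and the label, and they differ in 5 h of IAA. No labelled library came from cells without the degron given IAA, so effects of IAA itself cannot be told apart from loss of SNRNP70. The protocol text of all 6 libraries, those without IAA included, also ends in a line naming IAA for 4 h, which goes against their titles and treatment labels, and the grouping follows the titles and treatment labels. Every group named below also has 3 libraries. Whether replicates are separate cultures is not stated in the labels. P-values thus measure the spread between libraries, which may be technical. In such bulk samples fewer cells in a fraction and less RNA per cell cannot be told apart.

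U1 snRNP is the particle that recognises 5′ splice sites at the start of splicing, and it also keeps cryptic polyadenylation sites inside genes from being used. SNRNP70, also called U1-70K, is a protein of this particle that binds the U1 small nuclear RNA. In SLAM-seq, 4sU taken up into new transcripts is read as T-to-C changes, so that RNA made during the label is told from older RNA. Many lncRNAs stay on chromatin, and the nucleoplasm holds transcripts that have left it without yet reaching the cytoplasm.

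The deposited values, called signal here, are T>C read counts of each lncRNA scaled by the authors to spike-in RNA, and they are not divided by length. Whole labelled reads could be recovered in all 6 libraries. Of values above 0 only the lower ones were checked, and all of these lay within 0.1 read of a whole number. Reads came to 50036, 89879 and 52282 in +IAA libraries and 39498, 61024 and 44475 in no-IAA libraries. Summed over the 492 lncRNAs of the table, signal was 159859, 147585 and 177228 in +IAA libraries, against 103398, 122785 and 94027 in no-IAA libraries. The means were 161557 ± 14894 with IAA and 106737 ± 14666 without (SD, n = 3 each), a ratio of 1.51. The groups did not overlap, and the exact two-sided permutation test gave p = 0.1, the smallest that 3 against 3 libraries allow. The ratio rests on the spike-in scaling. LncRNAs called higher below held 97.7% of the net difference between the means, those called lower -12.7% and the rest 15.0%. The called sets were chosen on these same libraries, so the signs of their shares were fixed in advance. The snoRNA hosts held 52.4%, of which Snhg3 alone 12.9%, and the single entry Gm42418, which was not called, held 10.3%. Such shares follow the level of a lncRNA as well as its change. Gm42418 and Snhg3 are among the 5 lncRNAs of highest mean signal, with Snhg1, Snhg5 and Malat1. Without these 5 the ratio of the means was 1.48. The summed level of 13 of 31 listed ESC markers held in the table (Platr21 at 0 in +IAA replicate 1) was 1980.8 to 2064 in +IAA libraries, against 2372 to 3223 in no-IAA libraries. Of 12 markers of differentiated or other cells, 2 were in the table (Bvht and Halr1), summing to 125 to 200.0 with IAA and 410.2 to 521 without. Neither of these was at 0 in any of the 6 libraries. Mir124a-1hg, a host of a neuronal microRNA that is not among these 12 and is described below, was higher with IAA. The summed level of 5 chromatin-retained RNAs (Malat1, Neat1, Kcnq1ot1, Tsix and Firre, all in the table and none at 0) was 11169 to 14498 with IAA and 4856 to 5851 without. Tsix alone differed by 5274 between the group means. Malat1 and Kcnq1ot1 were also called higher in the test below, Firre was called lower and Neat1 did not pass. The part of these shifts in the results below was not tested. The gene for SNRNP70 is coding and the tables hold lncRNAs, so its loss was not checked here.

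With IAA, more lncRNAs rose in new nucleoplasmic RNA than fell. In limma with Benjamini-Hochberg adjustment, 134 of 490 lncRNAs tested changed (27.3%) at adjusted p under 0.05. Of all tested, 87 rose (17.8%) and 47 fell (9.59%), and the median log2 change was 0.21. A log2 change is taken on log2(signal + 8), which understates changes of low lncRNAs. The +IAA libraries all lay above the no-IAA libraries for 115 lncRNAs (23.5%) and all below for 66 (13.5%). Of the 123 lncRNAs with the highest mean signal 47 rose and 16 fell, and of the 123 with the lowest 4 rose and 7 fell. These means are over both groups, so a rise itself lifts a lncRNA in this ranking and a fall lowers it. Changes are also harder to call on few reads. The counts thus do not show how rises depend on level. With libraries centred on their medians the split was 76 higher and 67 lower, with 123 of the 134 calls kept. Scaling by TMM in edgeR gave 78 and 60, and DESeq2's own size factors 66 and 63. Without a trend of the spread on level, limma called 87, 59 higher and 28 lower. On the recovered reads with the authors' scaling, edgeR called 122, 83 higher and 39 lower.

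**Figure D1:**
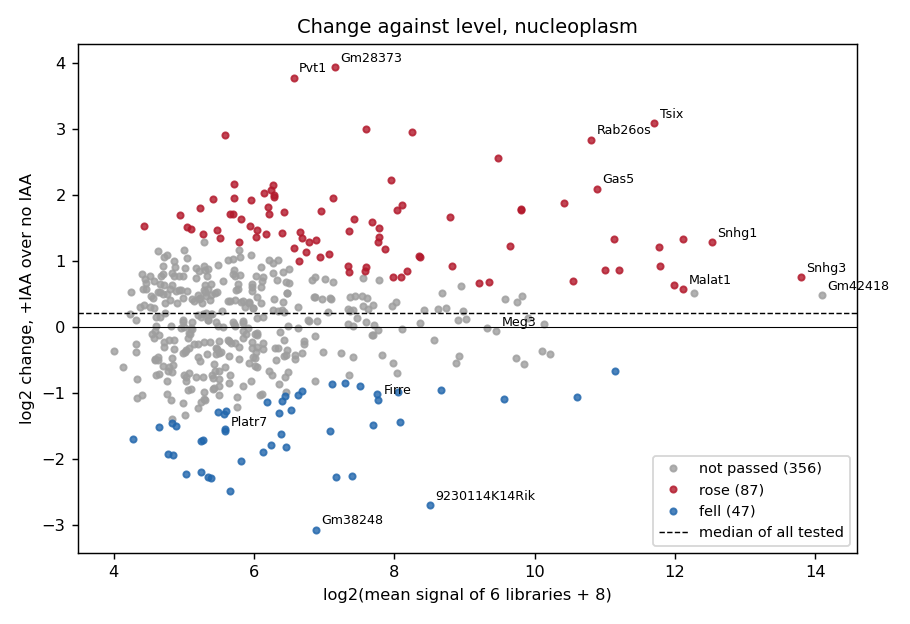
Log2 change in new nucleoplasmic RNA (+IAA over no IAA, vertical axis) against log2 of mean signal plus 8 over the 6 libraries (horizontal axis), 1 point for each of 490 lncRNAs, with 87 that rose in red and 47 that fell in blue. The dashed line is the median of all tested, 0.21, and the points at high level on the upper side include Tsix, Rab26os, Gas5 and Snhg1.

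Named rises are the 10 largest among 68 lncRNAs that passed, had no overlap between groups and a mean signal at or above the median of those tested, 49.9. That mean is over both groups, so a lncRNA low without IAA can meet it through its rise. Gm28373, Pvt1, C230096K16Rik and E130102H24Rik had no-IAA means below 49.9. Gm28373 led the named rises. Its signal was 169, 302 and 305 in +IAA libraries, against 2.62, 10.1 and 16.9 in no-IAA libraries (log2 change 3.94 ± 0.43 SE, limma adjusted p = 7.89e-18). These no-IAA values stand for 1, 5 and 8 reads. Pvt1, a lncRNA next to the Myc gene (RefSeq GRCm38.p6 chromosome 15, 62037986 to 62260215), followed at 185, 154 and 163 with IAA, against 13.1, 0 and 4.23 without (log2 3.78 ± 0.49 SE, adjusted p = 5.4e-13). It went unread in no-IAA replicate 2, and its no-IAA values stand for 5, 0 and 2 reads, so the size of both changes rests on few reads in the no-IAA group.

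Tsix, the antisense RNA that represses Xist in cis (chromosome X, 103431517 to 103484957), was at 6728, 5376 and 5807 in +IAA libraries, against 793, 639.8 and 655 in no-IAA libraries (log2 3.09 ± 0.22 SE, adjusted p = 2.67e-40). The lowest +IAA library lay far above the highest no-IAA library, and its no-IAA values stand for 303, 318 and 310 reads. Xist is not among the 492 lncRNAs. The labels name a directional library kit. Whether reads were counted by strand is not given in the sources used here, so reads of Tsix and Xist, or of other antisense pairs, may not be told apart. Rab26os, which RefSeq places at chromosome 17, 24528251 to 24528744, had 3233, 2606 and 3593 with IAA and 390.1, 445 and 455 without (log2 2.84, adjusted p = 5.03e-32). Gas5, a host of small nucleolar RNAs (snoRNAs) that is known as a growth-arrest transcript (chromosome 1, 161034601 to 161038539), had 2946, 2672 and 3434 with IAA and 539, 1115 and 564 without (log2 2.09, adjusted p = 1.95e-18). Its no-IAA replicate 2 was the highest of that group and still lay below every +IAA library.

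The other 5 have only clone or model names and no role is given for them here. C230096K16Rik averaged 335 ± 103 in +IAA libraries and 34.7 ± 10.9 in no-IAA libraries (log2 3.00), and Gm29170 averaged 528 ± 6.69 with IAA and 64.3 ± 28.0 without (log2 2.96, SD, n = 3 each). Gm28791 averaged 1201 ± 68.5 with IAA and 202 ± 52.8 without (log2 2.56), and Gm38359 393 ± 24.9 with IAA and 85.7 ± 44.1 without (log2 2.22). The last of the 10, E130102H24Rik, was at 83.1, 96.9 and 156 with IAA and 31.4, 48.3 and 0 without (log2 2.15, adjusted p = 4.31e-05). Its call was lost in DESeq2 on the recovered reads (adjusted p = 0.239, log2 2.07).

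**Figure D2:**
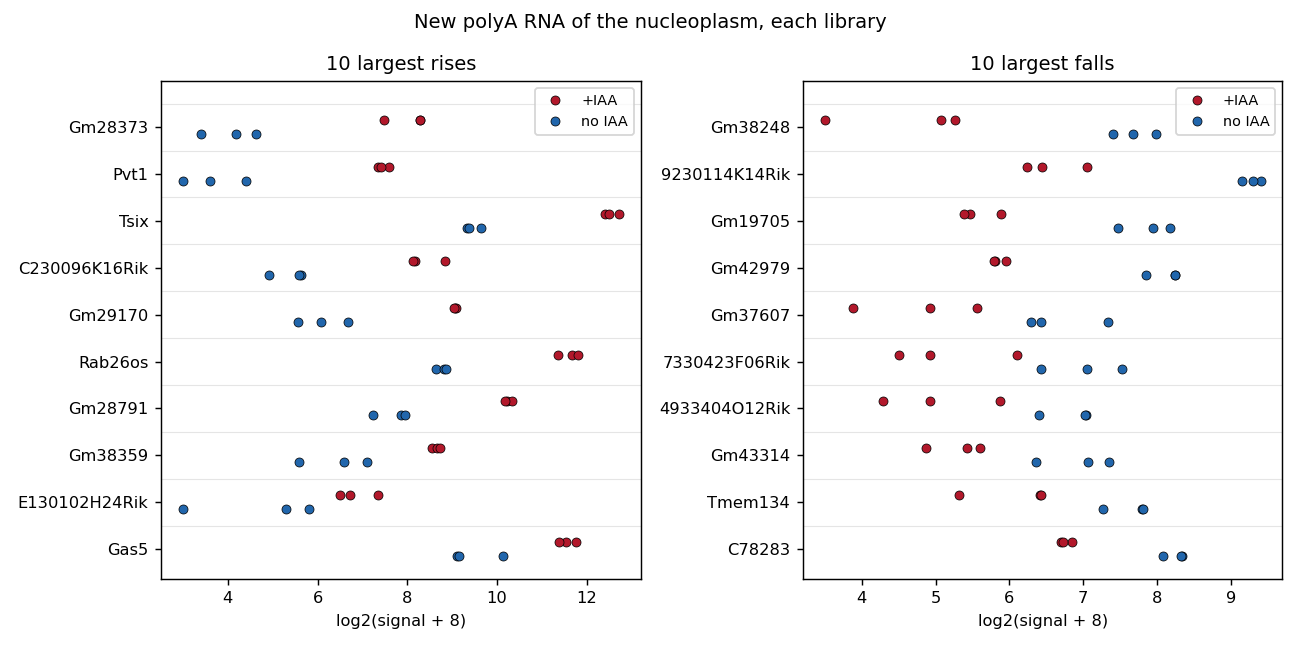
Each library's value, as log2(signal + 8) on the horizontal axis, for the 10 largest rises (left) and the 10 largest falls (right) in new nucleoplasmic RNA, with +IAA libraries in red above no-IAA libraries in blue. By the rule that chose them the groups do not overlap in any row, and the rise of Tsix lies at higher signal than any fall shown.

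Named falls are the 10 largest of 26 lncRNAs that met the same conditions. Here the condition on mean signal can be met through the no-IAA libraries. Gm38248 fell most, to 25.6, 3.28 and 30.5 in +IAA libraries, against 196, 245 and 161 in no-IAA libraries (log2 -3.08 ± 0.42 SE, adjusted p = 1e-11). The +IAA values stand for 8, 2 and 9 reads. 9230114K14Rik (chromosome 5, 52190681 to 52197984) was at 125, 78.8 and 67.8 with IAA, against 670.2, 622 and 562 without (log2 -2.71, adjusted p = 1.45e-18). For both, the gap between the groups was wider than the spread within either.

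Gm19705 (chromosome 1, 136683396 to 136690805) averaged 40.4 ± 9.37 with IAA and 229.7 ± 56.8 without (log2 -2.28), and Gm42979 49.9 ± 3.76 with IAA and 271 ± 42.6 without (log2 -2.26, SD, n = 3 each). Gm37607, 7330423F06Rik, 4933404O12Rik and Gm43314 fell by 1.62 to 1.89 on the log2 scale. Tmem134, which the table lists although RefSeq annotates the symbol as protein coding, had 31.9, 77.2 and 78.0 with IAA, against 147, 215 and 216 without (log2 -1.57, adjusted p = 0.000108). C78283, the last of the 10, averaged 100.3 ± 5.71 with IAA and 297 ± 30.2 without (log2 -1.49, adjusted p = 2.5e-05). All 10 falls had mean signal of 19.8 to 100.3 in the +IAA group.

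Hosts of snoRNAs, spliced RNAs whose introns carry the guides for modifying ribosomal RNA, rose more often than not. Of 16 hosts tested from a list of 22, 10 rose and 0 fell, beside 17.8% and 9.59% of all lncRNAs, with a median log2 change of 0.81 beside 0.21 for all 490. The same 10 rose in limma with centred libraries and in edgeR and DESeq2 under their own scaling. Under these 3 scalings Snhg14 and Snhg6 were called lower, so it depends on scaling whether any host fell. Leaving out 1 library gave 8 to 12 hosts that rose, and 2 that fell without no-IAA replicate 3.

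Snhg1 (chromosome 19, 8723487 to 8726326) was at 8102, 7412 and 9373 in +IAA libraries, against 2832, 4467 and 3047 in no-IAA libraries (log2 1.29 ± 0.21 SE, adjusted p = 4.43e-08). Snhg20 was at 5929.7, 6028 and 7071 with IAA, against 2427, 2859 and 2245 without (log2 1.34, adjusted p = 1.32e-08). In both the lowest +IAA library was well above the highest no-IAA library. Epb41l4aos averaged 2124 ± 206 with IAA and 584 ± 151 without (log2 1.88, adjusted p = 2.02e-14), and 1110038B12Rik 4864 ± 389 with IAA and 2105 ± 386 without (log2 1.22, adjusted p = 3.81e-07). Snhg17, Snhg8 and 2410006H16Rik also rose. Snhg3, the host with the most reads, averaged 17726 ± 1314 with IAA and 10656 ± 2457 without (log2 0.76, adjusted p = 0.0028).

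Snhg12 was at 5096, 4274 and 5322 with IAA, against 2903, 3795 and 2844 without (log2 0.63, adjusted p = 0.0162). Its call was lost without +IAA replicate 1 or 3 and without no-IAA replicate 1 or 3, where log2 changes were 0.55 to 0.60. Snhg5, Snhg6, Snhg9, Snhg14, Snhg15 and Snhg18 did not pass. Among them Snhg5 averaged 5812 ± 731 with IAA and 4096 ± 603 without (adjusted p = 0.0584), and Snhg14, which lies in the imprinted Prader-Willi domain, 191 ± 36.8 with IAA and 318 ± 87.5 without (log2 -0.69, adjusted p = 0.0547).

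Start regions of hosts that rose are shown because snoRNA hosts are known for transcripts that begin in a run of pyrimidines, a feature of RNAs of the translation machinery. Sequences are RefSeq, GRCm38.p6, sense strand 5′ to 3′, from 10 bases before the annotated start to 50 after it, with the longest unbroken run of C or T that touches the 5 bases before or the 10 after the start in capitals.
Snhg1 (chr19:8723477-8723536, plus strand): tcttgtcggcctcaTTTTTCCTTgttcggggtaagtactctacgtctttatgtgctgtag
Snhg12 (chr4:132308668-132308727, plus strand): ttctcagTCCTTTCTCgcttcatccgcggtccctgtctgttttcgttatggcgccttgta
Snhg8 (chr3:123508287-123508346, minus strand): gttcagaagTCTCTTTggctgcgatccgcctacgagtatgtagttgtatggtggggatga
Gas5, start 1 (chr1:161034591-161034650, plus strand): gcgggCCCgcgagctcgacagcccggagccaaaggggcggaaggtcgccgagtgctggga
Gas5, start 2 (chr1:161035156-161035215, plus strand): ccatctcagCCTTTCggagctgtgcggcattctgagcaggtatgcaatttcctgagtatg
Snhg3 (chr4:132353637-132353696, minus strand): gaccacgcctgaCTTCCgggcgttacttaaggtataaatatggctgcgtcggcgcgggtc
Snhg20 (chr11:117076773-117076832, plus strand): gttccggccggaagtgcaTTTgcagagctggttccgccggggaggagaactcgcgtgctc
A run of at least 7 was found at a start of 8 of 14 tested hosts with a RefSeq window (57.1%), 5 of the 9 that rose among them, and in 16.3% of 32851 RefSeq start windows. A host was counted if any of its starts had the run, while the 16.3% counts single windows, so these shares are unlike measures. Gas5, Snhg3 and Snhg20 rose without such a run. The run was about as frequent among hosts that rose (5 of 9) as among all tested (8 of 14). It thus did not set apart the hosts that rose. Gas5 has 2 annotated starts, of which the second has the longer run. In Snhg1 the letters ggtaag follow the run within the first 50 bases, a form of the 5′ splice site that U1 pairs with.

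**Figure D3:**
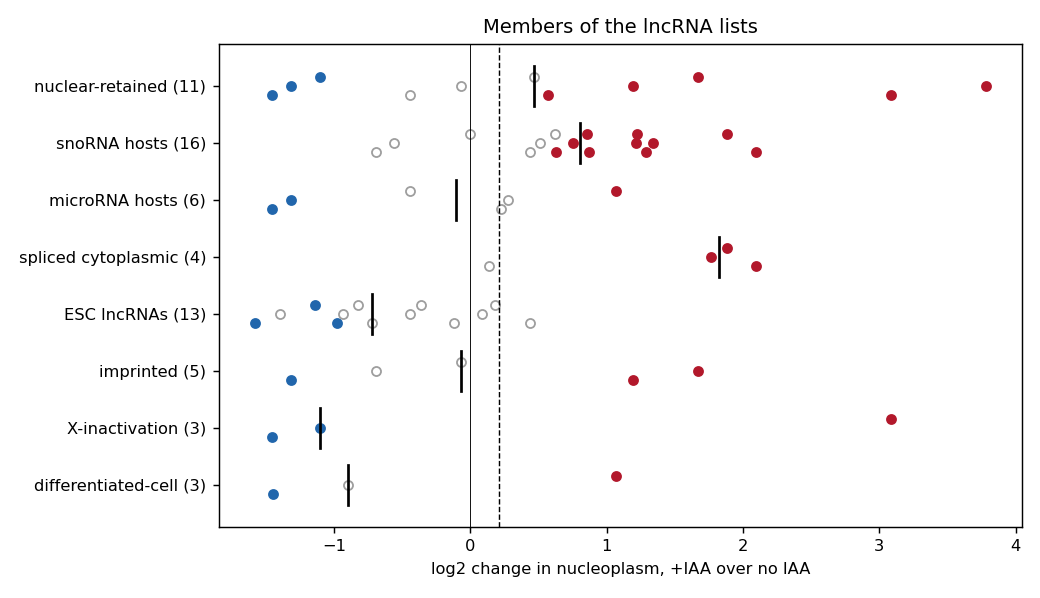
Log2 change in new nucleoplasmic RNA (+IAA over no IAA, horizontal axis) of each tested member of 8 lncRNA lists (rows, with the number tested), filled red where it rose, filled blue where it fell and open where it did not pass. Black bars are list medians and the dashed line is the median of all 490, 0.21. Most snoRNA hosts lie right of it and most ESC lncRNAs left of it.

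Nuclear-retained lncRNAs split. Of 11 tested, 5 rose (Tsix, Pvt1, Kcnq1ot1, Rian and Malat1), 3 fell (Firre, Ftx and Mirg) and 3 did not pass (Neat1, Meg3 and Dleu2), beside 17.8% that rose and 9.59% that fell over all lncRNAs. The median log2 change was 0.47. Leaving out 1 library gave 3 to 5 rises and 1 or 2 falls, and edgeR with the authors' scaling gave 4 and 1, and DESeq2 with its own size factors 3 and 2. Kcnq1ot1, the antisense RNA that silences its imprinted neighbours (chromosome 7, 143213111 to 143296547), was at 741, 540.2 and 719 in +IAA libraries, against 175, 278 and 169 in no-IAA libraries (log2 1.67 ± 0.26 SE, adjusted p = 9.97e-09). Malat1, an RNA of nuclear speckles (chromosome 19, 5795690 to 5802672), was at 5895, 4153 and 5915 with IAA, against 3982, 3592 and 3087 without (log2 0.57, adjusted p = 0.0326). Malat1's groups lay close to each other. Its call was lost without +IAA replicate 1 or 3 or no-IAA replicate 1 or 3 (log2 0.47 to 0.66), and in DESeq2 with its own size factors.

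Neat1, which scaffolds paraspeckles, was at 1016, 939 and 1159 with IAA, against 704, 839 and 699.8 without (log2 0.47, adjusted p = 0.126), and of the alternatives run passed without no-IAA replicate 2 alone (log2 0.55, adjusted p = 0.0405). Firre, an X-linked RNA that binds chromatin at its own locus and beyond (chromosome X, 50563120 to 50635321), fell to 118, 161 and 102 with IAA, against 196, 441 and 245 without (log2 -1.10, adjusted p = 0.00211). No-IAA replicate 2 stood above the others for Firre, and without it the log2 change was -0.78 (adjusted p = 0.0601). Ftx, an RNA of the X-inactivation centre, rested on 2, 6 and 1 reads with IAA and 22, 13 and 9 without (log2 -1.46, adjusted p = 0.0429), and its call was lost without +IAA replicate 1 or 3 or no-IAA replicate 1 or 2 (log2 -1.09 to -1.56) and in edgeR and DESeq2 with the authors' scaling (adjusted p = 0.0505 and 0.0516). So of the 3 X-inactivation lncRNAs tested Tsix rose, while Firre and Ftx fell, each short of the threshold when the library or libraries named were left out.

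The Dlk1-Dio3 imprinted domain holds Meg3, Rian and Mirg, transcribed in the same direction one after another. Rian, a host of snoRNAs, was at 121, 100.2 and 129 with IAA, against 105, 16.1 and 50.7 without (log2 1.20, adjusted p = 0.0129). Mirg, a host of microRNAs, was at 41.5, 21.4 and 3.39 with IAA, against 65.5, 38.2 and 67.7 without (log2 -1.32, adjusted p = 0.0386). Meg3 was at 719, 652 and 651 with IAA, against 602, 801 and 732 without (log2 -0.07, adjusted p = 0.861; 0.020 without no-IAA replicate 2). The groups overlapped for all 3 of them. The call of Rian was lost without +IAA replicate 1 or 3 or no-IAA replicate 2 (log2 0.61 to 1.17), and that of Mirg without +IAA replicate 2 or 3 or no-IAA replicate 1 or 3 (log2 -0.74 to -1.42). Both calls were also lost in each edgeR and DESeq2 fit on the recovered reads. Adjusted p was 0.074 to 0.363 for Rian (log2 0.73 to 1.05) and 0.0597 to 0.134 for Mirg (log2 -1.35 to -1.63).

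ESC lncRNAs lay mostly below the median of all tested. Of 13 tested 0 rose, and 3 of the Platr family of pluripotency-associated transcripts fell (Platr7, Platr26 and Platr3), beside 17.8% and 9.59% of all lncRNAs, with a median log2 change of -0.73. Platr7 was at 28.8, 4.93 and 16.9 with IAA, against 41.9, 92.6 and 55.0 without (log2 -1.58, adjusted p = 0.0116). Platr26 was at 54.3, 46.0 and 16.9 with IAA, against 68.1, 92.6 and 109.9 without (log2 -1.14, adjusted p = 0.034). The groups did not overlap in either, but every +IAA value of Platr7 stood for under 10 reads. Platr3 averaged 63.0 ± 23.7 with IAA and 127 ± 7.83 without (log2 -0.98, adjusted p = 0.0357).

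These ESC calls depended on single libraries and on the scaling. Leaving out 1 library left 0 to 2 of the 13 called, with 0 left without no-IAA replicate 2, 1 without no-IAA replicate 1 or 3 and 2 without each +IAA library in turn. Centring called 6, TMM 5 and edgeR with the authors' scaling 1 (Platr7). Lncenc1, an ESC lncRNA of the naive state, was at 875, 1038 and 936 with IAA, against 1134, 1467 and 1099 without (log2 -0.37, adjusted p = 0.243), and passed after centring (log2 -0.53, adjusted p = 0.0102).

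Of 6 microRNA hosts tested 1 rose, near the 17.8% of all lncRNAs, and 2 fell, beside 9.59% (median log2 -0.11). Leaving out 1 library left 0 or 1 fall, and edgeR and DESeq2 on the recovered reads left 0 or 1. Mir124a-1hg, the host of a neuronal microRNA, rose to 399, 442 and 444 with IAA, against 188, 322 and 131 without (log2 1.07, adjusted p = 0.000887), and the 2 that fell were Ftx and Mirg. Of 4 spliced cytoplasmic lncRNAs 3 rose and 0 fell, Gas5, Epb41l4aos and Dancr, a lncRNA known for holding back differentiation. Dancr averaged 1378 ± 286 with IAA and 401 ± 97.6 without (log2 1.77, adjusted p = 7.64e-12), but nearly all of its reads are also listed under ENSMUSG00000053656.6 (2175 and 2167 reads over the 6 libraries), so this rise is counted under both entries. Tug1, the fourth, was at 923, 980.3 and 1054 with IAA, against 759, 1187 and 795 without (log2 0.14, adjusted p = 0.684; -0.033 to -0.12 under the 3 other scalings).

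Of 12 opposite-strand lncRNAs 3 rose (Rab26os, Epb41l4aos and Rab10os) and Brip1os fell (median log2 -0.15). Rab10os was at 262, 258 and 214 with IAA, against 128, 147 and 106 without (log2 0.91, adjusted p = 0.0157), a call lost without +IAA replicate 1 or 2 or no-IAA replicate 3 (log2 0.79 to 0.87). Brip1os was at 95.8, 212 and 203 with IAA, against 306, 489 and 235 without (log2 -0.99, adjusted p = 0.00409), a call lost without +IAA replicate 1 or no-IAA replicate 2 (log2 -0.64 and -0.71). Of 3 lncRNAs tested from a longer list of differentiated-cell lncRNAs Mir124a-1hg rose, Halr1 fell and Bvht did not pass. Halr1, a lncRNA beside the Hoxa genes, fell to 92.7, 151 and 176 with IAA, against 385, 427 and 345 without (log2 -1.45, adjusted p = 1.1e-05). Of 265 lncRNAs with a Gm symbol 46 rose and 21 fell (median log2 0.27), and of 133 with a Rik symbol 19 rose and 12 fell (median 0.25), beside 17.8% that rose and 9.59% that fell over all lncRNAs. Without the trend in limma the calls of Firre, Malat1, Snhg12, Rian, Mirg, Mir124a-1hg, Platr3, Platr26, Brip1os and Rab10os were also lost (adjusted p = 0.0741 to 0.261).

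The first 50 transcribed bases of other named lncRNAs are shown because U1 snRNP pairs with sequences of the form GTNAG at the 5′ end of introns. GTNAG was searched on the sense strand alone and is in capitals (RefSeq, GRCm38.p6, 5′ to 3′).
Rab26os, rose (chr17:24528251-24528300, plus strand): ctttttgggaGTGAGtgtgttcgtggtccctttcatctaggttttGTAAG
E130102H24Rik, rose (chr4:101356199-101356248, minus strand): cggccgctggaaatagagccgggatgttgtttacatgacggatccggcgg
Kcnq1ot1, rose (chr7:143296498-143296547, minus strand): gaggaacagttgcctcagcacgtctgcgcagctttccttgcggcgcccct
Firre, fell (chrX:50635272-50635321, minus strand): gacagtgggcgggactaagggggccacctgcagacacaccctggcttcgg
Gm19705, start 1, fell (chr1:136683396-136683445, plus strand): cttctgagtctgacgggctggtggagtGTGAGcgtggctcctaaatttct
Gm19705, start 2, fell (chr1:136683629-136683678, plus strand): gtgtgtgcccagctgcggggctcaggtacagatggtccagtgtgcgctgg
4933404O12Rik, fell (chr5:136919146-136919195, plus strand): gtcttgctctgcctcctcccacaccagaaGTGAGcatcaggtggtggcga
Platr3, fell (chr2:135646523-135646572, plus strand): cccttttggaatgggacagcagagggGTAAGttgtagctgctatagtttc
Of all 32851 RefSeq start windows 17.6% hold GTNAG in these 50 bases. It is present in Rab26os, 4933404O12Rik, Platr3 and the first start of Gm19705, and not in E130102H24Rik, Kcnq1ot1 or Firre. Of lncRNAs with a matched window, 4 of 28 that rose held it at any start (14.3%), 9 of 25 that fell (36%) and 22 of 118 that did not pass (18.6%). The 17.6% counts single windows and is thus an unlike measure. A window was matched for 172 of the 492 lncRNAs and a position for 227 (46.1%). With under 80% covered, a check of start sequence or span over the called lncRNAs is void, and these shares describe the matched ones alone.

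New polyA RNA of the cytoplasm, from the same labelling and IAA treatment, was read in 6 further libraries. There 28 of 423 lncRNAs tested rose (6.62%) and 17 fell (4.02%). Of the 87 that rose in nucleoplasm 80 were tested in cytoplasm, where 24 rose and 0 fell. Of the 47 that fell 42 were tested, and 11 fell and 0 rose. Leaving out 1 cytoplasm library gave 12 to 33 shared rises, fewest without +IAA replicate 3 (15 without +IAA replicate 1), and 3 to 12 shared falls, of which 3 without +IAA replicate 3, 6 without replicate 2 and 7 without replicate 1. With libraries centred the split in cytoplasm was 35 higher and 27 lower.

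The change in nucleoplasm minus that in cytoplasm, tested as an interaction over 12 libraries, passed for 1 of 492 lncRNAs (0.203%). That was Gm37558, named after its values were seen. Its nucleoplasmic signal was 44.7, 69.0 and 115 with IAA, against 10.5, 0 and 0 without (log2 2.91, adjusted p = 3.58e-06). Its cytoplasmic signal was 0, 8.77 and 6.37 with IAA, against 35.9, 62.1 and 16 without (log2 -1.75, adjusted p = 0.221). The interaction was log2 4.66 (adjusted p = 0.00617) on 4, 0 and 0 reads in the no-IAA nucleoplasm libraries, and it missed the threshold without nucleoplasm +IAA replicate 3 (4.34, adjusted p = 0.0573) or no-IAA replicate 2 (4.46, adjusted p = 0.0575). The rises of Tsix, Pvt1 and Gas5 were also present in cytoplasm. Tsix averaged 4108 ± 872 there with IAA and 345 ± 145 without, Pvt1 757 ± 114 with IAA and 58.3 ± 11.4 without, and Gas5 2138 ± 269.6 with IAA and 281 ± 143 without (adjusted p = 1.72e-23, 1.44e-11 and 1.44e-14). A p that misses the threshold does not show that the fractions changed alike.

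New chromatin RNA, which was read as total and not polyA RNA, had more falls than rises under the authors' scaling, a split that turned round when libraries were centred on their medians. There 24 of 423 lncRNAs tested rose (5.67%) and 142 fell (33.6%), with a median log2 change of -0.41. With libraries centred 96 were higher and 65 lower (median 0.15), and 89 of the 166 calls were kept. Of the 47 lncRNAs that fell in nucleoplasm 41 were tested on chromatin, where 38 fell and 0 rose. Of the 87 that rose 85 were tested, of which 21 rose, 61 did not pass and 3 fell. The 3 with opposite calls were Malat1, Kcnq1ot1 and Gm44567, the last named after its values were seen (log2 1.47 in nucleoplasm and -0.53 on chromatin). Kcnq1ot1 averaged 1546 ± 114 on chromatin with IAA and 2284 ± 497 without (log2 -0.54, adjusted p = 0.0154), and Malat1 859 ± 112 with IAA and 1311 ± 159.8 without (log2 -0.61, adjusted p = 0.00555). With chromatin libraries centred 0 calls were opposite (log2 0.02 for Kcnq1ot1, -0.04 for Malat1 and 0.03 for Gm44567), 59 of the 85 rose and 26 of the 41 fell. Opposite calls thus depend on the scaling to spike-in RNA. Leaving out 1 chromatin library gave 1 to 4 of them, with 1 left without +IAA replicate 3 or no-IAA replicate 2, and 2 without no-IAA replicate 3.

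The change in nucleoplasm minus that on chromatin passed for 64 of 492 lncRNAs (13%), all higher in nucleoplasm. After libraries were centred on their medians 3 passed, and 40 passed without no-IAA chromatin replicate 2. Fraction and RNA class cannot be told apart in this difference. By the rule the 5 largest were Pvt1 (log2 3.15, adjusted p = 0.000641), Gm28373 (2.92, adjusted p = 0.00415), C230096K16Rik (2.84, adjusted p = 9.12e-06), Tsix (2.39, adjusted p = 5.44e-07) and Gm43566 (2.28, adjusted p = 0.00617). Of these, C230096K16Rik had 231, 287 and 244 on chromatin with IAA, against 220.2, 235 and 219 without, with overlapping groups, while its nucleoplasmic groups were far apart. Gm43566 had 230.0, 184 and 220.3 in nucleoplasm with IAA, against 49.7, 74.5 and 29.6 without, and 19, 18.9 and 23.4 on chromatin with IAA, against 53.5, 13.9 and 25.0 without. After centring, Pvt1 (2.37), Gm28373 (2.15) and Gm43566 missed the threshold, and C230096K16Rik and Tsix passed. Gm28373 also missed it with a pseudocount of 1 (2.54, adjusted p = 0.191).

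**Figure D4:**
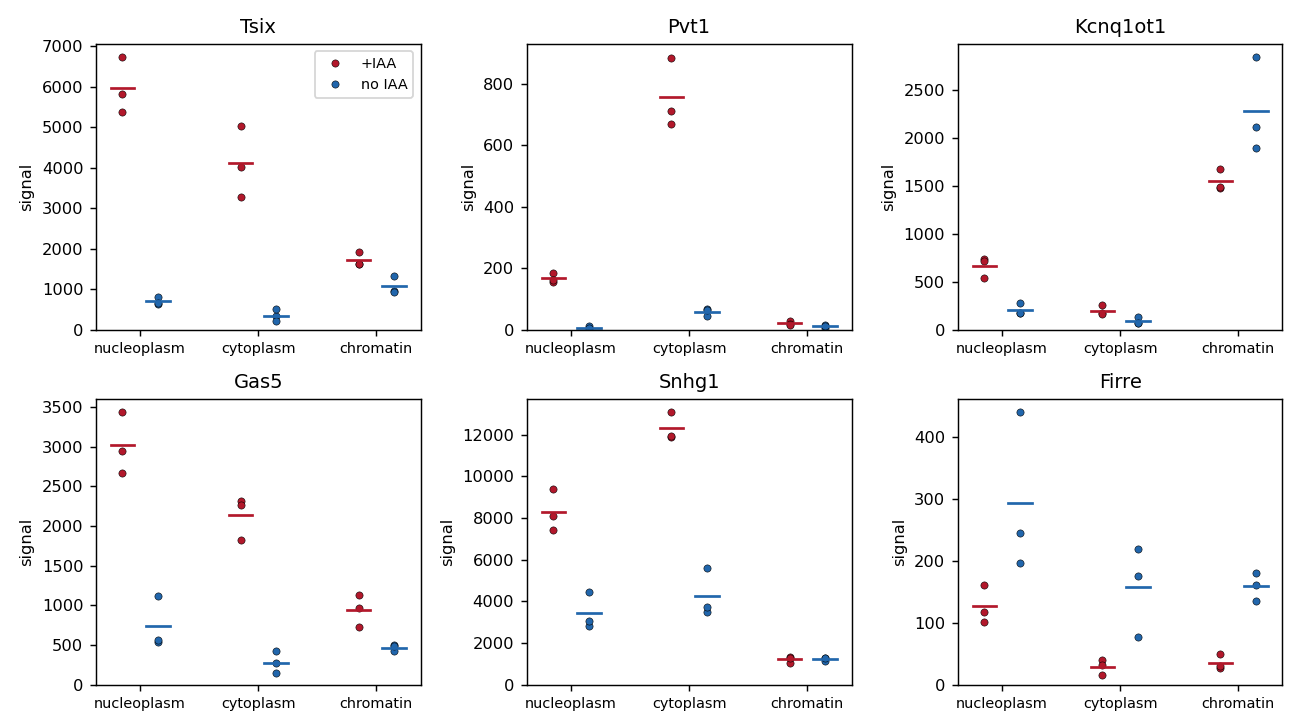
Signal in each library (points) and group mean (bar) for 6 lncRNAs in nucleoplasm, cytoplasm and chromatin, +IAA in red left of no IAA in blue, on linear axes from 0. Tsix, Pvt1, Gas5 and Snhg1 are higher with IAA in both soluble fractions, Kcnq1ot1 is higher in nucleoplasm and, under the authors' scaling though not with libraries centred, lower on chromatin. Firre is lower in all 3 fractions. Chromatin libraries hold total RNA and the others polyA RNA, so levels are read within a fraction.

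Total RNA of the nucleoplasm, unlabelled, from the same line at 4 h of IAA against 0 h, was read in 6 other libraries that share no control with those above. There 63 of 1209 lncRNAs tested rose (5.21%) and 130 fell (10.8%). With libraries centred the split turned round, to 148 higher and 90 lower, and it was 47 and 47 without 0 h replicate 1 and 28 and 31 without 0 h replicate 2. Of the 411 that are also in the labelled set, 38 rose and 59 fell. Of 82 lncRNAs that rose in new RNA and were tested in total RNA, 33 rose and 0 fell, which are 33 of the 38 rises there. Of 42 that fell in new RNA, 24 fell and 0 rose, which are 24 of the 59 falls. Leaving out 1 library of total RNA gave 18 to 30 shared rises, with 18 without 0 h replicate 2 and 21 without 4 h replicate 1 or 2. It gave 8 to 20 shared falls, with 8 without 0 h replicate 2 and 14 without 0 h replicate 1. With libraries of total RNA centred, 51 of the 82 rose and 20 of the 42 fell. In none of these fits was a call in total RNA opposite to that in new RNA. Labelled and total libraries differ in label, RNA class (polyA against total) and time of IAA (5 h against 4 h), which cannot be told apart.

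In fragments scaled to transcript length and depth (FPKM), Tsix was at 10.2, 9.26 and 8.30 in 4 h libraries, against 3.83, 2.73 and 2.77 in 0 h libraries (log2 of FPKM + 0.1 1.56, adjusted p = 0.00213). Snhg1 was at 111, 104 and 105 FPKM at 4 h, against 54.5, 48.0 and 51.6 at 0 h (log2 1.06, adjusted p = 0.00257). Both were above 0 h in every 4 h library, as in new RNA. Pvt1 was at 4.77, 5.67 and 4.15 FPKM at 4 h, against 4.54, 4.27 and 4.02 at 0 h (log2 0.17, adjusted p = 0.537), so its change in new RNA was not called in total RNA. C78283 was at 9.91, 7.51 and 9.60 FPKM at 4 h, against 24.7, 21.2 and 26.1 at 0 h (log2 -1.41, adjusted p = 0.00212). Malat1, which rose in new polyA RNA, averaged 919 ± 151 FPKM at 4 h and 1325 ± 202 at 0 h (log2 -0.53, adjusted p = 0.127), and Neat1 22.4 ± 4.50 at 4 h and 39.6 ± 7.47 at 0 h (log2 -0.82, adjusted p = 0.0327). Since the new RNA was polyA and this RNA total, a difference between them cannot be put down to the age of the RNA.

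**Figure D5:**
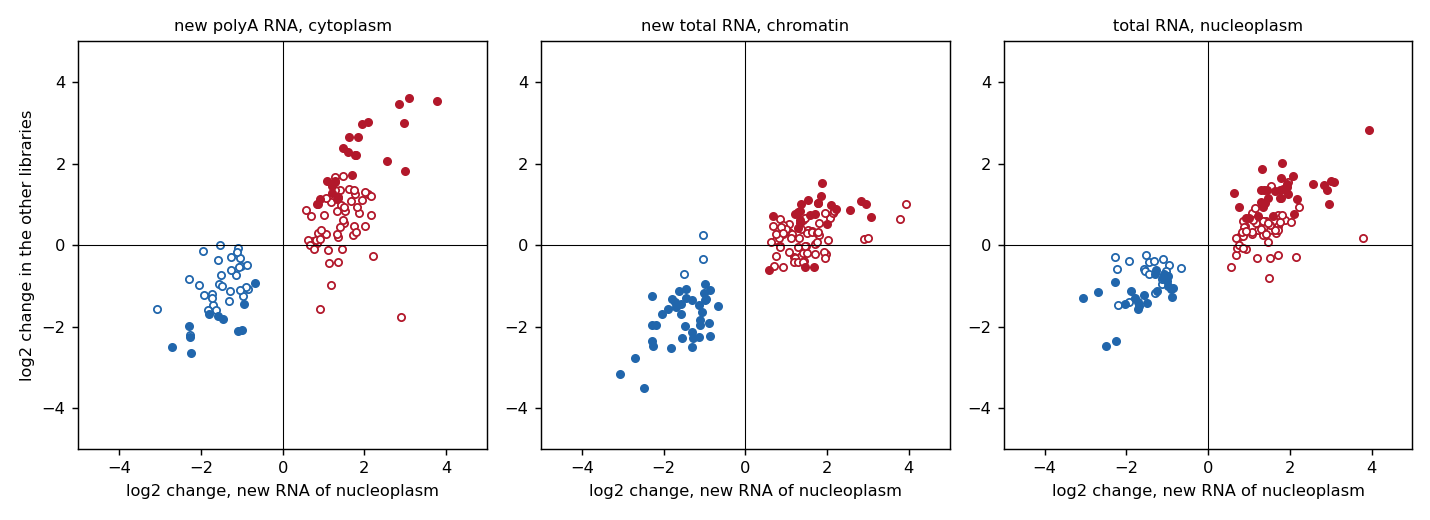
Log2 change in new polyA RNA of cytoplasm (left), new total RNA of chromatin (middle) and total RNA of nucleoplasm (right), each on the vertical axis, against log2 change in new nucleoplasmic RNA, for lncRNAs that rose (red) or fell (blue) in the last. Filled points passed adjusted p 0.05 in the other libraries too. No filled point has opposite signs in the left and right panels, and in the middle panel 38 of 41 that fell are filled and low, while 3 that rose are filled below 0. These values are under the authors' scaling, and with chromatin libraries centred 26 of the 41 passed as lower and 0 calls were opposite.

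Lists were also read in the other libraries, where 6.62% of all lncRNAs rose in cytoplasm, 5.67% on chromatin and 5.21% in total nucleoplasm, and 4.02%, 33.6% and 10.8% fell. Of the snoRNA hosts 7 of 16 tested rose and 0 fell in new cytoplasmic RNA (median log2 0.59), and in total nucleoplasmic RNA 7 of 13 rose while Snhg6 fell (median 0.60). On chromatin 4 of 15 rose (Gas5, Epb41l4aos, Snhg17 and Snhg20) and Snhg14 fell, with a median of 0.08. With libraries centred, 8 of 16 hosts rose in cytoplasm, 9 of 15 on chromatin and 11 of 13 in total RNA, where 0 then fell. Of the nuclear-retained lncRNAs 8 of 11 fell on chromatin (median -0.61) and Tsix alone rose, against 3 that fell and 2 that rose with libraries centred (median -0.04). Of the ESC lncRNAs 8 of 11 tested fell on chromatin (median -1.38) and 5 of 13 in total nucleoplasmic RNA (Panct2, Platr21, Platr3, Platr4 and Platr7), and 0 rose in either. With libraries centred 5 of 11 and 4 of 13 fell, and 0 rose.

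U1 small nuclear RNA itself was blocked in 46C mESCs, which carry no degron, by an antisense morpholino oligonucleotide (U1 AMO, 75 µM, 2 h) against a control AMO. In total RNA of the nucleoplasm the 3 U1 AMO libraries lay above the 3 control libraries for 183 of 1279 lncRNAs (14.3%) and below for 145 (11.3%). Of 82 lncRNAs that rose in new RNA with IAA and are in that table, 30 were higher with U1 AMO without overlap and 5 lower. Of 42 that fell, 0 were higher and 3 lower. Among 289 that did not pass with IAA 31 were higher and 39 lower. All these U1 AMO counts are under the authors' scaling, and no other scaling was run for them. Snhg12 was at 474, 208 and 448 FPKM with U1 AMO, against 97.3, 52.3 and 82.0 with control AMO, and Snhg1 at 149, 74.0 and 175 with U1 AMO, against 58.5, 36.1 and 58.4 with control AMO. Gm28373 was at 2.57, 1.08 and 2.42 FPKM with U1 AMO, against 0.670, 0.350 and 0.550 with control AMO. These 3 did not overlap between groups, and in each of them replicate 2 was the lowest library of both groups. The overlap rule takes no account of replicate numbers. Tsix overlapped, at 1.73, 0.970 and 1.36 FPKM with U1 AMO, against 2.84, 1.66 and 1.48 with control AMO, a lower mean. In total nucleoplasmic RNA of the degron line Tsix had been called higher with IAA, as in new RNA. AMO and labelled libraries differ in line, treatment, time, label and RNA class, which cannot be told apart.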

How the data were processed

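Values came from 3 deposited tables of lncRNAs, in which 60 further columns were not used. Signal values of the SLAM-seq table are, per the file headers, T>C read counts that the authors scaled to spike-in RNA (ERCC, per the labels). FPKM values of total RNA were deposited scaled to spike-in RNA by the authors, per the file headers. CASAVA, TopHat and Cufflinks with build mm10 are named in the submitters' processing notes. The sources used here name no annotation, filter, strand setting or caller of T>C changes, and no library without 4sU was used, so T>C reads from other sources were not measured. Depth of the FPKM libraries is unknown.

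A lncRNA was tested where at least 3 libraries reached a pseudocount of 8 (the 10th percentile of signal above zero; 0.1 for FPKM). limma 3.58.1 in R 4.3.3 (eBayes with trend) compared groups on log2(value + pseudocount), with Benjamini-Hochberg adjustment over all tested, threshold 0.05. Interactions used 4 group means in 1 fit. Alternatives included edgeR 4.0.16 and DESeq2 1.42.0 on recovered whole reads, taking each deposited value as a whole multiple of a step of its library. This was checked on the lower values alone. Scripts were tested on simulated data. In nucleoplasm 31.3% of simulated 2-fold changes and 67.7% of 4-fold changes were recovered. For nucleoplasm minus cytoplasm 7% and 40% were recovered, and for nucleoplasm minus chromatin 10% and 54.5%. Changes of such size can thus be missed. Tables were joined in Python 3.11.15 with pandas 2.3.3 and drawn with matplotlib 3.10.9. Replicate libraries differed by more than counting noise and none was a duplicate. Members and lists were chosen with earlier results of these data known. Named were the 10 largest rises and falls that passed without overlap at or above the median mean signal, the 5 largest of each interaction, up to 4 members per list that passed, by smallest p, and a standing set (Malat1, Neat1, Meg3, Rian, Mirg, Kcnq1ot1, Tsix, Firre, Lncenc1, Tug1, Gas5, Snhg1, Snhg12, Pvt1, Dleu2 and Rab26os in the table). Other members with values, such as Snhg3, Snhg5 and Snhg14, were chosen after their values were seen. U1 AMO counts, and the counts of shared calls and lists with the other libraries centred, were added after the data had been seen. Identifiers were matched to symbols without their version (485 of 492). Gene structure classes and splice sites, planned at the start, were not analysed here for want of a genome annotation with exons.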

Additional observations from a re-analysis of the deposited data

Results flagged for a closer look

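In 5 named lncRNAs the change with IAA differed between nucleoplasm and chromatin by the interaction test in limma under the authors' scaling. With libraries centred on their medians, Pvt1, Gm28373 and Gm43566 missed the threshold in that test (adjusted p = 0.0527, 0.0872 and 0.15). With a pseudocount of 1, Gm28373 missed it too (log2 2.54, adjusted p = 0.191). On chromatin alone the log2 change was 0.63 for Pvt1, 1.02 for Gm28373, 0.17 for C230096K16Rik, 0.70 for Tsix and -0.32 for Gm43566. The difference, nucleoplasm minus chromatin on the log2 scale, was 3.15 for Pvt1, 2.92 for Gm28373, 2.84 for C230096K16Rik, 2.39 for Tsix and 2.28 for Gm43566. Nucleoplasm libraries held polyA RNA and chromatin libraries total RNA, so fraction and RNA class cannot be told apart. Groups of 3 libraries are too small for a test of single outlying libraries.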

How the results depend on the processing

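The count of 134 nucleoplasm calls was 114 to 143 under the other pseudocounts, filters, scalings and count tests, 87 (59 higher, 28 lower) without the eBayes trend and 91 in 1 fit of 18 libraries. It was 97 to 119 with 1 library left out. With 1 of each pair of identifiers with shared reads left out, an alternative chosen after seeing the data, it was 133. Centring moved the median log2 change of all lncRNAs from 0.21 to 0.04. Whether replicate numbers pair the libraries could not be told (correlations of deviations 0.15, -0.02 and 0.11, with 2 of 3 highest for the own number). With a replicate block 115 were called (78 higher, 37 lower). The change in nucleoplasm minus cytoplasm passed for 0 lncRNAs with a pseudocount of 1, 2 with 32, and 0 to 2 with 1 library left out. Nucleoplasm minus chromatin passed for 3 after centring and for 40 to 85 with 1 library left out (40 without no-IAA chromatin replicate 2). Cytoplasm calls (45) ranged from 15 to 54 with 1 library left out, with 29, 26 and 15 without +IAA replicates 1, 2 and 3. Centring turned the split round on chromatin (96 higher, 65 lower) and in total nucleoplasm (148 higher, 90 lower). Total nucleoplasm calls (193) ranged from 59 to 135, with 120 and 114 without 4 h replicates 1 and 2, and 94 and 59 without 0 h replicates 1 and 2. With 1 library left out the log2 change of Meg3 was -0.18 to 0.020, above 0 without no-IAA replicate 2. Tug1 changed sign after centring (-0.033), with TMM (-0.041) and with DESeq2's own size factors (-0.12). The cause was not tested. Of the values of single named lncRNAs under an alternative, 784 of 872 in nucleoplasm kept their direction and side of the threshold, and 80 lost the call. Depth limits low lncRNAs: medians per library were 16 to 28 reads, and low changes are shrunk by the pseudocount.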
